A study of Mus musculus with 6 samples.

Results

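AP-1 is a family of transcription factor dimers, and the genes of its Fos and Jun subunits are described here with Atf3, Egr1 and Ier3 in the livers of ethanol-fed mice with and without Cd44 in myeloid cells. The 10 genes (Fos, Fosb, Fosl1, Fosl2, Jun, Junb, Jund, Atf3, Egr1 and Ier3) were chosen by symbol. Earlier results of these data were known when they were chosen. All 10 were found among the 54532 genes of the count table. Bulk RNA sequencing of whole liver covered 6 C57BL/6J/Rj mice, and every animal was homozygous for floxed Cd44. The 3 controls, labelled WT, had the unmodified LysM locus (LysM+/+), so they were floxed littermates rather than true wild types. The 3 knockouts, labelled CD44 KO LysM, carried 1 LysMcre allele, in which Cre is expressed from the lysozyme gene Lyz2 of macrophages, monocytes and neutrophils. All mice had free access to Lieber-DeCarli liquid food for 10 days, of which ethanol made up 6% by volume. On day 11 they received 5 g of ethanol per kg body weight by gavage, and they were killed 9 hours later. The sources used here give no age. No ethanol-free mice and no mice with Cre alone were analysed here, so Cre, the modified Lyz2 allele and the loss of Cd44 cannot be told apart.

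All are protein-coding genes; positions are on GRCm38. The Fos family is made up of Fos (ENSMUSG00000021250) at chr12:85473890-85477273 (plus strand), Fosb (ENSMUSG00000003545) at chr7:19302696-19310051 (minus strand), Fosl1 (ENSMUSG00000024912) at chr19:5447547-5455946 (plus strand) and Fosl2 (ENSMUSG00000029135) at chr5:32135801-32157842 (plus strand). The Jun family is made up of Jun (ENSMUSG00000052684) at chr4:95049034-95052222 (minus strand), Junb (ENSMUSG00000052837) at chr8:84974484-84978718 (minus strand) and Jund (ENSMUSG00000071076) at chr8:70698949-70700616 (plus strand). The others are Atf3 (ENSMUSG00000026628) at chr1:191170296-191218039 (minus strand), Egr1 (ENSMUSG00000038418) at chr18:34859823-34864984 (plus strand) and Ier3 (ENSMUSG00000003541) at chr17:35821684-35822923 (plus strand).

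AP-1 proteins bind DNA through a basic region and pair through a leucine zipper. Jun proteins pair with one another or with Fos proteins, whereas Fos proteins need a Jun partner. Most of these genes are immediate-early genes: their transcription rises within minutes of growth factor, stress or cytokine signals through MAP kinases, and their short-lived messenger RNAs then decay. In liver, AP-1 and EGR1 are known for their induction by injury, partial hepatectomy and endotoxin.

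Libraries held 18428224 to 24042917 counts, so 3 counts corresponded to 0.119 to 0.148 CPM (counts relative to the scaled library total), and this covers counting error only. Cd44 itself was at 32.6, 34.7 and 26.4 CPM in controls 1, 2 and 3, against 2.11, 1.92 and 3.00 CPM in knockouts 1, 2 and 3, the direction that the labels give. Libraries were scaled with the TMM factors of edgeR. All adjusted p-values for genes come from the quasi-likelihood test of edgeR with Benjamini-Hochberg adjustment over 14758 genes, and a gene was called at an adjusted p under 0.05. Log2 fold changes are knockout against control, with their standard error (SE). Hepatocyte markers dominated every liver, with 8 markers summing to 66170 to 78977 CPM in controls and to 90952 to 123213 CPM in knockouts. Alb alone held 52636 to 60229 CPM of that sum in controls and 72290 to 96424 CPM in knockouts. Alb was not called (adjusted p = 0.131).

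Of the 10 genes, 8 fell in the knockout livers: Fos, Fosb, Fosl1, Fosl2, Jun, Junb, Jund and Ier3. Over all genes tested, 13.1% were called lower. In whole liver, fewer cells of a type and less RNA per cell cannot be told apart. The 2 that were not called, Atf3 and Egr1, had fitted changes below 0 as well. The groups did not overlap for the same 8 genes, and over all genes tested 22.4% lay lower in every knockout than in any control and 21.4% higher. The median log2 change of the 10 genes was −1.57, beside −0.01 over all genes tested. The table as a whole held 1933 lower and 1751 higher genes, and with scaling by library totals 3698 lower and 904 higher genes. Without control liver 2 the count of lower genes was 1189, and 1183 genes were lower when knockout liver 1 was dropped. The largest falls were those of Ier3, Fosl1 and Fos, and the smallest was that of Jund.

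**Figure D1:**
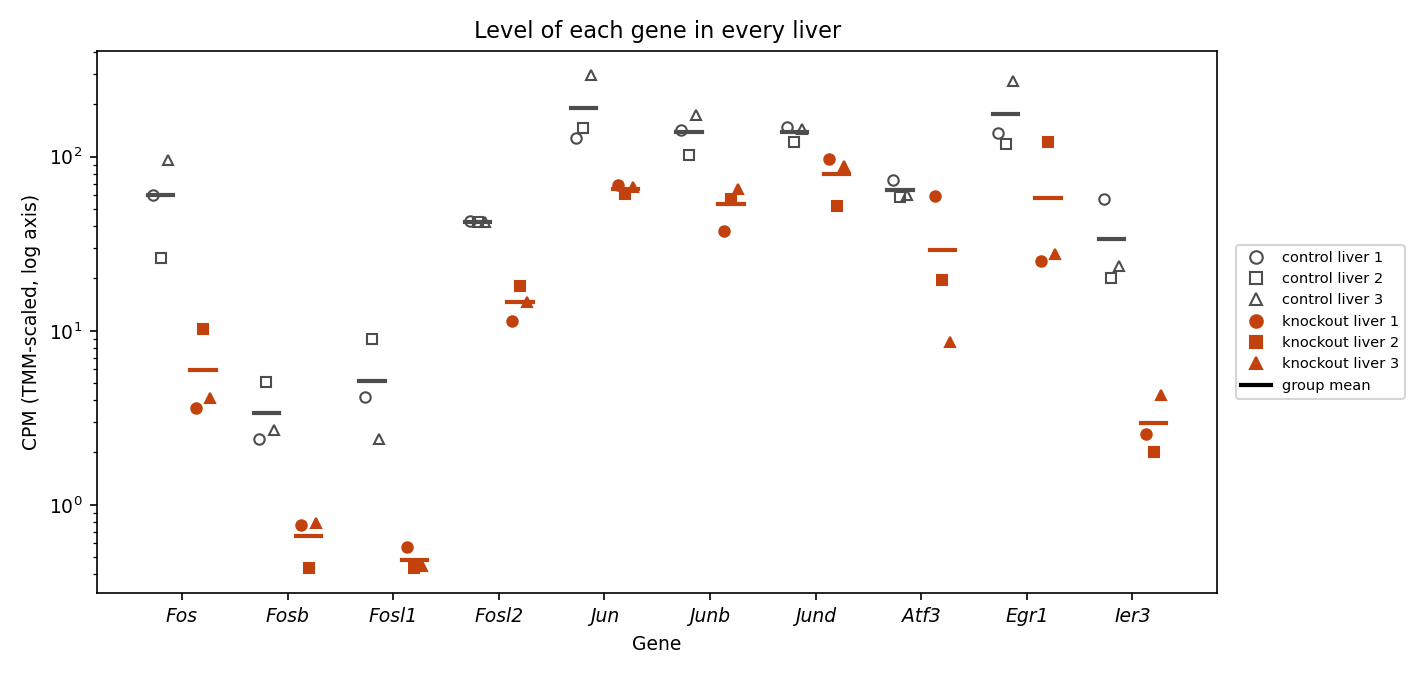
CPM on a log axis for each of the 10 genes, with open grey symbols for the 3 control livers, filled orange symbols for the 3 knockout livers and a bar at each group mean. The groups are separate for 8 genes, while knockout liver 1 reaches the controls for Atf3 and knockout liver 2 for Egr1.

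Fos, the founding member of its family and a partner of Jun proteins, stood at 60.3, 26.1 and 95.3 CPM in controls 1, 2 and 3. In the knockouts it stood at 3.59, 10.2 and 4.09 CPM. Every knockout lay below every control, and the lowest control was 2.55-fold above the highest knockout. The fall was 10.1-fold (log2 −3.34, SE 0.54, adjusted p = 0.00392). Only 0.407% of the genes tested had a lower log2 change. The controls themselves spread over 3.65-fold and the knockouts over 2.85-fold, with knockout liver 2 highest. Without that liver the fall was 15.7-fold.

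Fosb, whose product also exists as the long-lived short form known as ΔFosB, was expressed at a low level. It stood at 2.38, 5.07 and 2.69 CPM in controls and at 0.766, 0.433 and 0.788 CPM in knockouts. The groups were separate, and the fall was 5.06-fold (log2 −2.34, SE 0.40, adjusted p = 0.0051). Isoforms were not resolved by these counts per gene.

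Fosl1 encodes FRA1, a Fos protein without the transactivation domain of c-Fos. Its counts were 105, 186 and 55 in the controls and 12, 9 and 9 in the knockouts, which equals 4.17, 8.98 and 2.39 CPM against 0.575, 0.433 and 0.443 CPM. Control liver 2 was the highest and the 3 knockouts lay close together, above the level of 3 counts. The fall was 10.6-fold (log2 −3.40, SE 0.53, adjusted p = 0.00349), and 6.62-fold without control liver 2. The gene shares 1163 of its 2033 exonic bases with Ccdc85b on the other strand, and no source used here gives the strand setting of the counting, so its level is uncertain. Ccdc85b stood at 13.7 to 15.6 CPM in controls and at 17.1 to 21.8 CPM in knockouts (log2 0.37, adjusted p = 0.077).

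Fosl2 encodes FRA2, the other Fos protein without that domain. It was almost the same in the 3 controls, at 42.6, 42.3 and 42.0 CPM, and stood at 11.4, 18.0 and 14.7 CPM in the knockouts. Only 0.19% of the genes tested had a smaller standard deviation of log2 CPM among the controls. The fall was 2.88-fold (log2 −1.52, SE 0.16), and its adjusted p of 0.000869 was the smallest of the 10 genes. Among 9858 other protein-coding genes with a mean of at least 5 CPM, the profile over the 6 livers lay closest to that of Dynll1, a dynein light chain. Their distance, the root of the summed squared differences of centred log2 CPM, was 0.21. Nucb2 (0.28) and Zmat3 (0.29) came next. Dynll1 stood at 50.6, 43.6 and 43.7 CPM in controls and at 12.2, 19.5 and 17.6 CPM in knockouts.

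Jun, the partner that also pairs with itself, stood at 129, 146 and 293 CPM in controls and at 68.4, 60.9 and 67.3 CPM in knockouts. Control liver 3 was far above the other controls, and the knockouts spread over only 1.12-fold. The fall was 2.89-fold (log2 −1.53, SE 0.29, adjusted p = 0.00723). Jun shares 232 exonic bases with the antisense gene Junos, which had 28, 27 and 15 counts in controls and 22, 15 and 18 counts in knockouts (log2 −0.20, adjusted p = 0.727).

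Junb, often an antagonist of Jun at shared targets, stood at 142, 102 and 174 CPM in controls and at 37.2, 57.3 and 65.6 CPM in knockouts. The groups were separate, and the fall was 2.61-fold (log2 −1.38, SE 0.25, adjusted p = 0.00608). It shares 173 exonic bases with Prdx2 on the other strand, which stood at 122 to 125 CPM in controls and at 97.1 to 120 CPM in knockouts (log2 −0.22, adjusted p = 0.196).

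Jund is the Jun gene that resting cells express most steadily. It stood at 149, 121 and 145 CPM in controls and at 96.5, 52.2 and 88.6 CPM in knockouts, with knockout liver 2 lowest. Its fall of 1.75-fold was the smallest of the 10 (log2 −0.81, SE 0.22, adjusted p = 0.0288). The call was lost without any 1 of the controls (adjusted p = 0.0811, 0.0542 and 0.0859 without controls 1, 2 and 3). Gm11175, which overlaps 877 of its 1668 exonic bases on the other strand, was listed at 0 in all livers. With the strand setting unknown, the level of Jund is uncertain as well, and with it its place among the genes per kb and its share of the Jun family.

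The promoter sequences of Fos, Jun and Junb are shown because these 3 genes fell together and their windows overlap no annotated exon. The window of Jund is not shown, since its RefSeq start lies 1210 bases from the GENCODE end of the gene. The sequences are RefSeq windows on GRCm38.p6, each the 120 bases before the RefSeq start, 5′ to 3′ on the strand of the gene, and capitals mark matches to the motifs ACGTCA or TGACNTCA on either strand. Fos lies at chr12:85473770-85473889 on the plus strand, Jun at chr4:95052223-95052342 and Junb at chr8:84978749-84978868, both on the minus strand.
Fos: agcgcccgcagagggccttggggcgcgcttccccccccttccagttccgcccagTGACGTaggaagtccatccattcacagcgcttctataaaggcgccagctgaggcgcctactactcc
Jun: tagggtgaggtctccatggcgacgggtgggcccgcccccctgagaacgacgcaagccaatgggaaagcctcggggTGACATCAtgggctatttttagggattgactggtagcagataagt
Junb: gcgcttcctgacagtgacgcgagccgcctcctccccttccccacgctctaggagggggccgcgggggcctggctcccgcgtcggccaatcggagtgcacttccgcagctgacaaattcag

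Fos held the motif ACGTCA, the core of the cyclic AMP response element bound by ATF and CREB proteins, with its first base 66 bases before the start, on the minus strand. Jun held TGACATCA, a match to TGACNTCA, 45 bases before its start, and Junb held neither motif. Of 8 genes with a window of 300 bases (250 before and 50 after the start), Atf3 was the only other with a match, to ACGTCA 8 bases before its RefSeq start. That start lies 34706 bases from the GENCODE 5′ end of Atf3, and the 120 bases before it overlap an Atf3 exon. The RefSeq starts of Jund and Fosl2, also among the 8, lie 1210 and 671 bases from their GENCODE 5′ ends. TGACNTCA was found in 8.83% of 32851 promoter windows of that length and ACGTCA in 7.51%. The AP-1 motif was searched only in the form TGANTCA, which the TGACATCA of Jun does not match. TGANTCA was found in 7.81% of windows and the EGR motif GCGTGGGCG in 0.612%, with no match to either in the 8 windows. The CArG box, the motif of serum response factor, was in 1.63% of windows and in none of the 8. Bases more than 250 before a start were not searched, so a site further upstream would be missed. Fosl1 and Egr1 were not among the genes with a window. A match is a run of letters and was not tested for binding.

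The Jun and Fos families were then compared per kb of exon, so that genes of different length can be set side by side. The 3 Jun genes summed to 191, 163 and 255 CPM per kb in controls and to 95.5, 75.3 and 103 CPM per kb in knockouts, a ratio of means of 2.23. The 4 Fos genes summed to 32.5, 20.7 and 46.5 CPM per kb in controls and to 3.11, 6.50 and 3.60 CPM per kb in knockouts, a ratio of 7.54. The level of the Fos family was thus 17.0%, 12.7% and 18.2% of that of the Jun family in controls and 3.26%, 8.63% and 3.51% in knockouts. The groups were separate, and the two-sided exact permutation test gave p = 0.1, the smallest that 3 livers against 3 allow (0.4 adjusted over 8 such measures). Jund and Fosl1, whose levels are uncertain with the strand setting unknown, are part of these sums and ratios.

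Within the Fos family, Fosl2 took 13.5%, 21.1% and 9.35% of the summed level in controls and 37.9%, 28.7% and 42.2% in knockouts (exact permutation p = 0.1, adjusted 0.4). Fos took 79.0%, 53.6% and 87.2% in controls and 49.1%, 67.0% and 48.2% in knockouts, and these ranges overlapped (exact permutation p = 0.2, adjusted 0.48). Per kb of exon, Fos was the largest part of the family in each of the 6 livers. In CPM without length, Fosl2 was above Fos in control liver 2 (42.3 against 26.1 CPM) and in knockouts 1, 2 and 3 (11.4 against 3.59, 18.0 against 10.2 and 14.7 against 4.09 CPM). Within the Jun family, Jund took 46.6%, 44.6% and 34.1% in controls and 60.6%, 41.5% and 51.7% in knockouts, which overlapped too (exact permutation p = 0.3, adjusted 0.48).

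**Figure D2:**
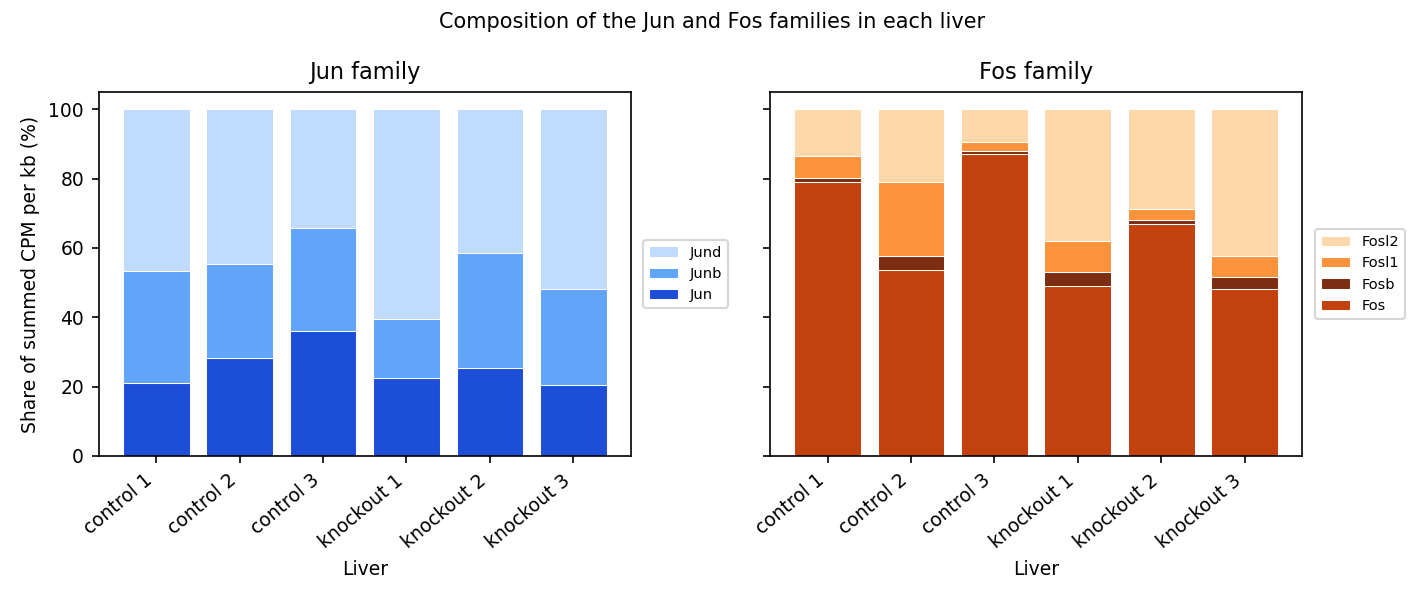
Stacked bars give the percentage of the summed CPM per kb that each gene takes in the Jun family (left) and in the Fos family (right), for each of the 6 livers. The Fosl2 share is larger in every knockout than in any control, 28.7% to 42.2% against 9.35% to 21.1%, while the Jun family shares overlap between groups.

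On the same per-length scale, Jund was the highest of the 10 genes in controls (82.9 ± 8.93 CPM per kb, mean ± SD, n = 3). Junb (60.5 ± 15.8), Jun (59.4 ± 28.3), Egr1 (39.3 ± 18.9), Ier3 (29.8 ± 18.2), Atf3 (29.7 ± 3.67) and Fos (25.8 ± 14.7 CPM per kb) followed. The ranges of neighbours in this order overlapped down to Fos, which lay clear of Fosl2 (4.37 ± 0.027 CPM per kb). Fosl2 overlapped Fosl1 (2.55 ± 1.68 CPM per kb), and Fosb (0.542 ± 0.236 CPM per kb) was lowest. In knockouts Jund (47.4 ± 14.2 CPM per kb) lay clear of Junb (23.2 ± 6.35 CPM per kb), and Ier3 (2.61 ± 1.05 CPM per kb) and Fos (2.54 ± 1.57 CPM per kb) lay clear below Egr1. Fos and Ier3 overlapped Fosl2 (1.52 ± 0.342 CPM per kb) there, which they did not in controls.

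Atf3, a stress-induced bZIP factor of the ATF/CREB family that pairs with Jun proteins, was not called. It stood at 73.2, 59.0 and 60.1 CPM in controls and at 59.5, 19.7 and 8.62 CPM in knockouts. Knockout liver 1 was within the range of the controls, and the other knockouts were lower. The knockouts spread over 6.90-fold, and 99.4% of the genes tested had a smaller standard deviation of log2 CPM there. The log2 change was −1.13 (SE 0.56, adjusted p = 0.174). Without knockout liver 1 it was −2.17 (adjusted p = 0.0089).

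Egr1, the zinc finger factor that gives the early growth response family its name, was not called either. It stood at 137, 118 and 273 CPM in controls and at 25.1, 122 and 27.5 CPM in knockouts. Knockout liver 2 lay between control livers 2 and 1, while the other knockouts lay far below every control. The log2 change was −1.60 (SE 0.61, adjusted p = 0.0899), and without knockout liver 2 it was −2.74 (adjusted p = 0.00273). Egr1, Fos and Fosl2 were highest among the knockouts in the same liver, and Atf3 was highest in another.

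Ier3 encodes a small stress-response protein that affects cell survival and is no transcription factor. It stood at 57.4, 20.1 and 23.6 CPM in controls and at 2.54, 2.02 and 4.28 CPM in knockouts. The groups were separate although control liver 1 was far above the other controls. The fall of 11.4-fold (log2 −3.52, SE 0.46, adjusted p = 0.0017) was the largest of the 10, and it was 7.34-fold without control liver 1.

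Each control liver was the highest for some of the genes. Control liver 3 was highest for Fos, Jun, Junb and Egr1, control liver 1 for Fosl2, Jund, Atf3 and Ier3, and control liver 2 for Fosb and Fosl1. With 1 liver left out in turn, Fos, Fosb, Fosl1, Fosl2, Jun, Junb and Ier3 were called lower in all 6 fits. Their largest adjusted p was 0.0288, for Jun without knockout liver 1.

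**Figure D3:**
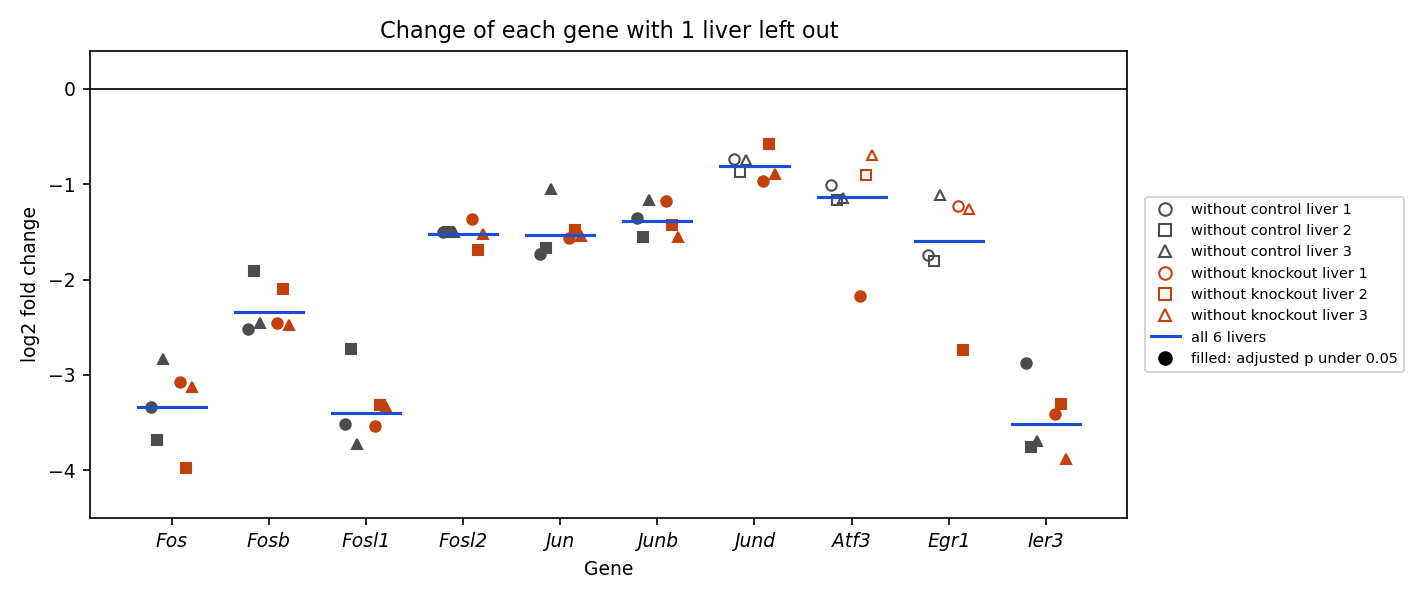
Log2 fold change of each of the 10 genes with 1 liver left out in turn (grey symbols for a control, orange for a knockout, filled where the adjusted p is under 0.05) and with all 6 livers (blue line). Values stay below 0 throughout, with the widest ranges for Atf3 (−2.17 to −0.69) and Egr1 (−2.74 to −1.11).

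Other genes of the same regulatory systems were counted from lists, to be read beside the 13.1% of all genes tested that were called lower. Of 13 further AP-1 family and Maf-type genes, 4 fell: Jdp2, a repressor that pairs with Jun (9.31 ± 1.39 to 2.72 ± 0.658 CPM), the small Maf genes Mafk (53.5 ± 3.20 to 31.2 ± 4.05 CPM) and Maff (27.2 ± 8.04 to 10.5 ± 4.28 CPM), and Batf (1.40 ± 0.097 to 0.581 ± 0.145 CPM). The list median was 0.01, and 2 fell without control liver 2. Of 5 genes of the EGR family and their NAB co-repressors, 3 were tested, with a median log2 change of −0.57. Egr2 fell 4.09-fold, from 3.06 ± 0.246 to 0.747 ± 0.501 CPM, and Nab1, a co-repressor of EGR proteins, fell 1.48-fold, from 165 ± 5.26 to 111 ± 4.82 CPM.

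Of 32 other immediate-early genes, 20 fell and 2 rose, with a median log2 change of −1.06. Over all genes, 11.9% were called higher. Ccn1, a matricellular protein gene, fell from 39.7 ± 1.91 to 9.21 ± 1.62 CPM, and Klf6, a Krüppel-like factor, from 115 ± 10.3 to 29.1 ± 6.26 CPM. Btg2, an antiproliferative gene, fell 6.50-fold from 199 ± 52.2 to 30.7 ± 6.73 CPM, and Gadd45b from 13.0 ± 1.35 to 5.26 ± 0.238 CPM. The 2 that rose, Klf10 (19.0 ± 1.71 to 37.9 ± 16.3 CPM, log2 0.99, adjusted p = 0.0377, with overlapping groups) and Phlda1 (log2 1.26, adjusted p = 0.0351), are named after their values were seen. Without control liver 3 or knockout liver 1 the count of falling genes was 13, and with library totals neither of the 2 was called higher, nor was either without control liver 2 or knockout liver 2.

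Transcripts of kinases and factors upstream were counted too. Of 25 genes of the MAP kinase cascades, their substrates and the serum response factor system, 3 fell: the ribosomal S6 kinases Rps6ka3 (44.3 ± 2.34 to 26.3 ± 4.24 CPM) and Rps6ka1 (30.0 ± 1.86 to 21.3 ± 3.42 CPM), and Mrtfa, a coactivator of serum response factor (16.2 ± 2.23 to 10.7 ± 1.13 CPM). Over all genes tested, 13.1% fell. The median was −0.02, and 1 fell without control liver 1 or control liver 3. With library totals 8 fell. These counts measure messenger RNA, and kinase activity was not measured.

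Of 26 genes reported elsewhere as targets of AP-1 or EGR1, 24 were tested, 15 fell and 2 rose, with a median of −1.42. The shares over all genes tested were 13.1% lower and 11.9% higher. The urokinase receptor Plaur fell from 11.4 ± 3.33 to 1.72 ± 0.400 CPM. The cytokine Lif fell from 1.88 ± 0.173 to 0.226 ± 0.074 CPM and the growth factor Areg from 7.80 ± 4.08 to 0.677 ± 0.088 CPM. The 2 that rose were the tissue factor gene F3 (log2 1.14, adjusted p = 0.0251) and Vegfa (log2 0.68, adjusted p = 0.0204), named after their values were seen. Only 1 rose with library totals and without control liver 1, control liver 3, knockout liver 1 or knockout liver 2.

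**Figure D4:**
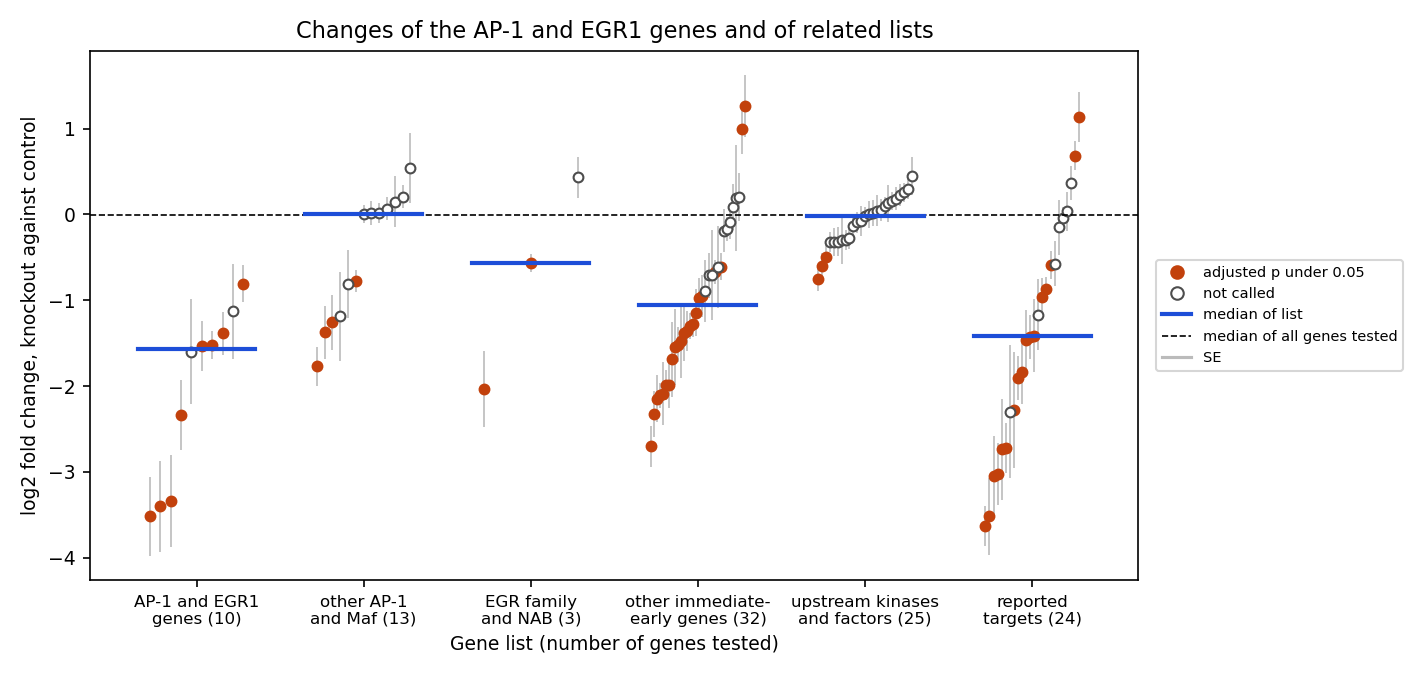
Log2 fold change with SE for the 10 genes and for each gene tested of the 5 related lists, filled orange where the adjusted p is under 0.05, with a blue line at the list median and a dashed line at the median of all genes tested. The medians of the 10 genes (−1.57), the other immediate-early genes (−1.06) and the reported targets (−1.42) lie below the dashed line. So does that of the 3 EGR family and NAB genes tested (−0.57). Those of the upstream genes (−0.02) and of the other AP-1 and Maf genes (0.01) lie close to it.

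Markers of myeloid cells moved in the same direction. Beside the marker counts below, 13.1% of all genes tested were called lower and 11.9% higher. All 8 shared myeloid markers fell, Lyz2 among them, whose locus carries Cre. Their summed level was 436 to 472 CPM in controls and 100 to 189 CPM in knockouts. Lyz2 alone held 195, 218 and 235 CPM of that sum in controls 1, 2 and 3 and 41.3, 36.9 and 66.5 CPM in knockouts 1, 2 and 3. Of 6 Kupffer cell markers 5 fell (751 to 818 against 220 to 492 CPM), of 5 monocyte markers 4 (24.6 to 37.6 against 9.52 to 12.6 CPM) and of 6 neutrophil markers 4 (14.9 to 29.2 against 3.07 to 8.22 CPM), and no marker of these lists was at 0 in all livers. The Kupffer count was 1 to 3 without control liver 1, 2 or 3 or knockout liver 1, and the neutrophil count was 2 without control liver 1 or knockout liver 1. Of 6 stellate cell markers 3 fell (453 to 531 against 376 to 418 CPM), and of 8 hepatocyte markers 4 rose, 2 of them without control liver 1. Of 6 endothelial markers 0 were called by edgeR (199 to 241 against 165 to 228 CPM), 2 passed an unadjusted p of 0.05, and 1 each was called with DESeq2 and with limma-voom. By ranges alone, 2 endothelial markers lay lower in every knockout than in any control and 2 lay higher. Among the stellate markers 3 lay lower in this way and 1 higher. Over all genes tested these shares were 22.4% lower and 21.4% higher. Without knockout liver 2, 2 endothelial markers fell. Of 5 cholangiocyte markers (56.9 to 60.2 against 50.1 to 52.7 CPM) 0 were called by edgeR, DESeq2 or limma-voom, 1 had an unadjusted p under 0.05, and 1 fell without knockout liver 2. The part of these cell types in the changes of the 10 genes was not tested. Knockout liver 2, with the lowest shared myeloid level (132, 100 and 189 CPM in knockouts 1, 2 and 3), had the highest Fos, Fosl2 and Egr1 of the knockouts and the lowest Fosb, Fosl1, Jun, Jund and Ier3. For Fosl1 this rests on scaling alone, since knockout livers 2 and 3 both had 9 counts.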

How the data were processed

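Per the labels' protocols, poly-T-selected messenger RNA of whole liver was sequenced from 6 mice. The authors deposited raw counts per Ensembl gene, 1 column per mouse, and all columns were used. The submitters' processing notes list featureCounts 1.5.0-p3, HISAT2 2.0.5 and StringTie 1.3.3b with GRCm38.p6, giving no roles, and strand setting and annotation release are not given in any source used here. GENCODE M21 (GRCm38) supplied symbols, positions and exon lengths for 54495 of 54532 identifiers.

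Genes were filtered with filterByExpr, scaled by TMM and tested with edgeR 4.0.16 (R 4.3.3) without covariates. Steps were tested on simulated counts. There 9.58% of 1.5-fold, 55.3% of 2-fold and 92.4% of 4-fold changes were recovered, and 8.49% of calls were false, more than the threshold of 0.05. The simulation used 200 changed genes and 5 draws, whereas 3684 genes were called in these data, so its rates may differ here. Alternatives were RLE size factors, library totals, DESeq2 1.42.0, limma-voom (limma 3.58.1), no filter, at least 50 counts in 3 libraries, the 20 most abundant genes left out, the mouse number as a block, and each library left out.

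The 10 genes, 5 related lists and 8 marker lists were chosen with earlier results of these data known. Of each related list, up to 4 called genes with the smallest p were named (1 of them is not reported here), with the 3 nearest profiles to the gene with the smallest p.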

Additional observations from a re-analysis of the deposited data

How the results depend on the processing

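Depth limits Fosb and Fosl1 most, which had 9 to 16 counts in each knockout. Fos, Fosb, Fosl1, Fosl2, Jun, Junb and Ier3 kept their direction and call in all 14 alternatives, and none of the 10 genes reversed. Egr1 was called with library totals (log2 −1.89, adjusted p = 0.0361), limma-voom (−1.90, adjusted p = 0.0441) and no filter (−1.60, adjusted p = 0.00421). Atf3 was called with no filter (−1.12, adjusted p = 0.0307). With library totals, which moved the all-gene median by −0.25, 3698 genes were lower and 904 higher, 8 upstream genes, 3 endothelial, 5 stellate and 1 cholangiocyte markers were lower, and 0 immediate-early and 1 target gene were higher. Endothelial markers called lower numbered 1 with DESeq2, limma-voom or no filter, and higher immediate-early genes 1 with limma-voom. Without length scaling, the Fosl2 share differed by 28.5 points, against 21.6.

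Deviations of same-numbered livers correlated at −0.025, 0.047 and −0.019, and control liver 1 correlated best with knockout liver 3. The mouse numbers thus showed no pairing, though 3 livers per group cannot exclude one. With the replicate block, 8 of the 10 genes were lower, as were 1648 genes in all with 1438 higher, 2 neutrophil and 2 endothelial markers were lower, and 1 immediate-early gene was higher.

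With 1 liver left out in turn, log2 ranged from −0.97 to −0.57 for Jund, −2.17 to −0.69 for Atf3 and −2.74 to −1.11 for Egr1. Counts ranged from 1183 to 1837 lower and 1086 to 1576 higher for all genes. Lower genes numbered 2 to 4 among the AP-1 and Maf genes, 13 to 19 among the immediate-early genes and 1 to 3 among the upstream genes, and higher genes 0 to 1 among the immediate-early genes and 1 to 2 among the targets. Among markers, 2 to 5 hepatocyte ones were higher, and 1 to 5 Kupffer, 2 to 5 neutrophil, 0 to 2 endothelial and 0 to 1 cholangiocyte ones lower.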

Other observations

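Gadd45a and Gadd45g, which encode stress-induced regulators of growth arrest, had uneven levels among mice of 1 genotype. Gadd45a was at 13.8, 12.5 and 10.5 CPM in controls 1, 2 and 3 and at 12.5, 27.0 and 2.46 CPM in knockouts 1, 2 and 3. Gadd45g was at 85.0, 18.0 and 23.8 CPM in controls and at 25.9, 19.1 and 33.0 CPM in knockouts. Mmp12, a macrophage elastase and reported AP-1 target, was at 52.4, 41.3 and 54.9 CPM in controls and at 7.09, 0.721 and 22.5 CPM in knockouts. Its order among the knockouts was that of the summed shared myeloid markers (132, 100 and 189 CPM), and a link between them was not tested. Calls of edgeR over all genes gave an adjusted p of 0.853 for Gadd45a, 0.364 for Gadd45g and 0.0622 for Mmp12. These genes were picked after their values were seen.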
